A study of Mus musculus with 5 samples.

Results

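The levels of 10 genes of the neuromuscular junction were followed in gastrocnemius muscle: the acetylcholine receptor subunit genes Chrna1, Chrnb1, Chrnd, Chrne and Chrng, the receptor-clustering genes Lrp4, Musk, Dok7 and Rapsn, and Colq, which anchors acetylcholinesterase. They were chosen by symbol, and all 10 of 10 were found among the 35275 genes of the deposited table. The muscle came from female NSG mice, an immunodeficient strain with the label genotype wild type, at an age of 12 weeks. The mice had been given 10 tail-vein injections of extracellular vesicles from MCF-10A/miR122 cells, 2 per week over 5 weeks with about 10 µg each, and the muscle was taken 2 days after the last. MCF-10A is a human mammary epithelial line that does not form tumours, and miR-122 is best known as the dominant microRNA of hepatocytes. NSG mice lack mature T, B and natural killer cells but keep macrophages. There were 5 samples of this 1 group and no untreated group was analysed here, so the values describe treated muscle and the spread between its libraries. Whether the 5 numbered samples are separate animals is not spelled out in the labels, and the p-values below concern only these samples. Some set the differences between them against counting error or against genes of like level, and others ask whether a gene lies above another.

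At the neuromuscular junction, the motor nerve releases acetylcholine onto a small patch of the muscle fibre packed with nicotinic receptors. The receptor of adult fibres holds alpha, beta, delta and epsilon subunits, and in foetal muscle gamma stands in the place of epsilon. Agrin from the nerve binds Lrp4, which activates the kinase Musk. Musk works with the adaptor Dok7, and the scaffold protein rapsyn then gathers the receptors under the nerve ending. In adult fibres these genes are read mostly in the few nuclei below the synapse, whereas after loss of the nerve and in regenerating fibres the alpha, delta and gamma genes are known to be read along the whole fibre. Myogenic factors such as myogenin act on such genes through E-boxes, and factors of the ETS family act on synaptic genes through the N-box.

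Promoter sequences are shown for 3 subunit genes that behaved differently between the libraries, Chrna1 and Chrng, which were far higher in library 3, and Chrne, which was level. Each is the 250 bases before the RefSeq start site on GRCm38.p6, written 5′ to 3′ on the strand of the gene, with E-boxes (CANNTG) and N-boxes (CCGGAA, either strand) in capitals. Chrna1 is read from the minus strand (chr2:73580339-73580588), Chrng from the plus strand (chr1:87205561-87205810) and Chrne from the minus strand (chr11:70619195-70619444).
Chrna1: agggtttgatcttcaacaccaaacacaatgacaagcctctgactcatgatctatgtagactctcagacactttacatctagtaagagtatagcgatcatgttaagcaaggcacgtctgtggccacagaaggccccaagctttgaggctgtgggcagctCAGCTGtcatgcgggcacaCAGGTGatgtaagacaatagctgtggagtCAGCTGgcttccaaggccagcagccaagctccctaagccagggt
Chrng: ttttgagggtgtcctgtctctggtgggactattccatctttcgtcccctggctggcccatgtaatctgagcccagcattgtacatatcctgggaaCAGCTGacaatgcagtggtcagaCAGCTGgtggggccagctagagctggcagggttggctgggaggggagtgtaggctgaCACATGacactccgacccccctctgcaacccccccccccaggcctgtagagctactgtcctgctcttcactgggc
Chrne: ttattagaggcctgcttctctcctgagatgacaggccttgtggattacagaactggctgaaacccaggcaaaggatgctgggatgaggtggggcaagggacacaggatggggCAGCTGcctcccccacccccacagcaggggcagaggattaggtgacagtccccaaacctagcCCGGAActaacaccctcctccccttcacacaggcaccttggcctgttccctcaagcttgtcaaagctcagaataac

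Chrna1 and Chrng each held 3 E-boxes and no N-box in this window. Chrne held 1 E-box, and 1 N-box at positions -76 to -71, counted from the start site. Among the 32851 promoter windows of the same length in the RefSeq table, 66.2% held at least 1 E-box, 12.2% held 3 or more and 12.0% held an N-box. Of the 10 members, 6 had an entry in that table. Among these, Chrnb1 and Musk also had 3 E-boxes and no N-box, and the 2 Dok7 windows had 1 and 0 E-boxes. No E-box overlapped an N-box in any of these windows. The Chrng window lies inside the annotated gene, which also holds earlier starts. A match to these letters is a description and not a site of binding.

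The library totals recovered from the FPKM values were 16674504 to 25407988 reads. Levels are given in FPKM, reads scaled by gene length and by the library total. Muscle genes led the tissue, with Acta1, the skeletal actin, at 32368 ± 1983 FPKM (SD, n = 5). Library 3 stood apart across all genes tested and not only the synaptic ones. Among the 10710 genes that averaged 1 FPKM or more, 4005 (37.4%) were highest in it, and 777 (7.25%) were at least 1.5-fold over the next library there, against 15 to 120 genes for each of the other libraries. All 10 macrophage markers were highest in library 3, with a summed level of 366 FPKM there and 93.9 to 124 FPKM elsewhere, and with C1qa at 58.4 against 21.5 to 28.9 and C1qc at 32.4 against 11.6 to 15.2. Of the 12 markers of regenerating fibres, 11 were highest there and Pax7 in library 1, with a summed level of 265 FPKM in library 3 against 58.8 to 106 FPKM. The share of 37.4% counts only genes averaging 1 FPKM or more, as 10 of these 12 did. Of the 10, 2 did so only through library 3, and so did 1 of the 10 macrophage markers. Such genes had to be higher there than the other libraries on average. Both marker lists were chosen with earlier results of these data known. The part of these differences of library 3 in the results below was not tested.

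**Figure D1:**
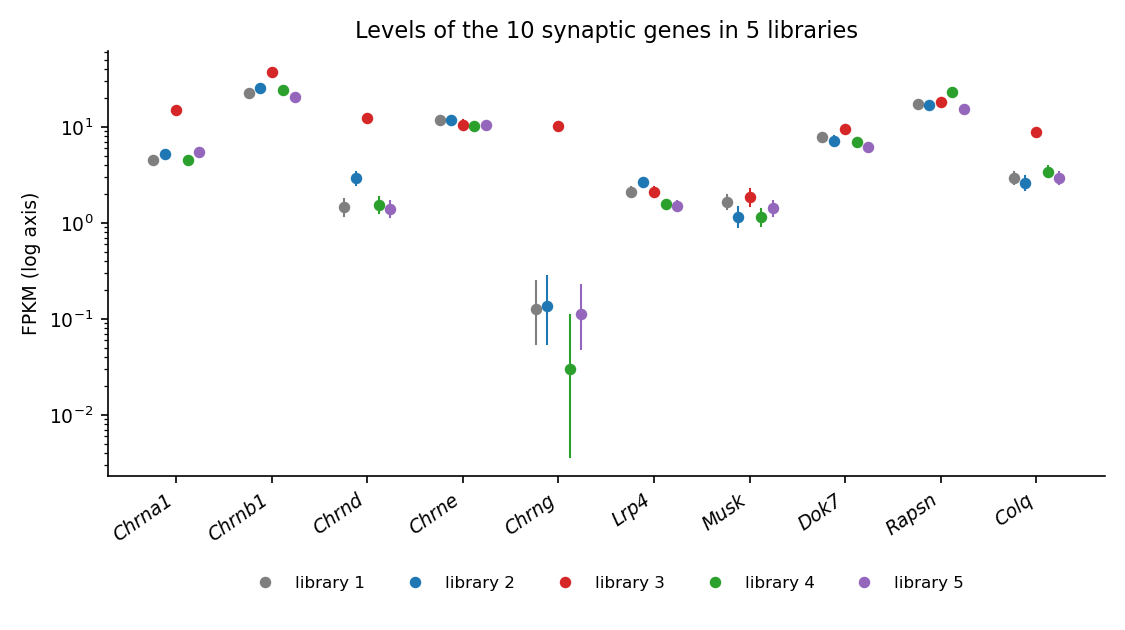
FPKM (log axis) of the 10 synaptic genes in each of the 5 libraries, drawn as points in the order of the library numbers, with exact 95% Poisson intervals of the reads as vertical lines. Chrng sits at 10.2 FPKM in library 3 and below 0.14 FPKM in the other libraries, while Chrne sits between 10.2 and 11.8 FPKM in all 5.

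Among the receptor subunits, the foetal gamma gene differed most between the libraries. Chrng (ENSMUSG00000026253, GRCm38 chromosome 1, 87204657 to 87212694, plus strand) was at 0.126, 0.136, 10.2, 0.0302 and 0.113 FPKM in libraries 1 to 5. It was thus nearly silent in 4 libraries and in library 3 as abundant as the adult subunit. These levels rest on 8, 7, 474, 2 and 8 reads, and the floor of 3 reads corresponds to 0.0425 to 0.0647 FPKM. Library 4, with 2 reads, lies below that floor, and the other low values lie above it by few reads. Library 3 was 75.3-fold over library 2, the next highest (95% interval 36.2 to 188, counting error only), and 339-fold over library 4 (interval 93.2 to 2805). This was the largest fold of a highest over a next library among the 10710 genes, the second largest being 36.1, and the only 1 (0.00934%) at 50-fold or more in library 3. Chrng passed the filter of a mean of 1 FPKM only through library 3, since its mean was 0.101 FPKM without it, and a gene of that kind must differ between libraries.

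Chrne, the adult epsilon gene (ENSMUSG00000014609, chromosome 11, 70614883 to 70619216, minus strand), was at 11.8, 11.7, 10.6, 10.2 and 10.4 FPKM in libraries 1 to 5. No library stood out, and library 3 lay in the middle. Its coefficient of variation was 6.79%, against 5.14% from counting error alone. It was the only 1 of the 10 genes whose reads did not differ between libraries beyond counting error (chi-square 7.15, Benjamini-Hochberg adjusted p = 0.139). A protein-coding gene on the opposite strand, 4930544D05Rik, overlaps it at 2.35 FPKM on average, and without a stated strand setting reads of the 2 cannot be told apart.

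The share of gamma in the summed FPKM of gamma and epsilon followed from these levels. It was 1.05%, 1.15%, 49.2%, 0.294% and 1.07% in libraries 1 to 5. The Wilson intervals of reads, rescaled by gene length, ran from 45.5% to 52.8% in library 3 and from at least 0.0806% to at most 2.35% in the others. The mean of 10.5% ± 21.6 (SD, n = 5) rested on library 3 and was 0.891% ± 0.400 without it (n = 4).

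Chrnd, the delta subunit gene (ENSMUSG00000026251, chromosome 1, 87190607 to 87200070, plus strand), lies 4586 bases before Chrng on the same strand. It was at 1.46, 2.93, 12.5, 1.55 and 1.40 FPKM in libraries 1 to 5. Library 3 was 4.27-fold over library 2 (interval 3.58 to 5.12), and library 2 was in turn above the remaining 3, which lay close together. Of the 10710 genes, 39 had a fold at or above that of Chrnd.

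Chrna1, the alpha subunit gene that carries most of the acetylcholine binding site (ENSMUSG00000027107, chromosome 2, 73563215 to 73580338, minus strand), was at 4.57, 5.15, 15.0, 4.47 and 5.51 FPKM. Library 3 was 2.72-fold over library 5 (interval 2.46 to 3.01), and the other 4 libraries varied by 10.0% (coefficient of variation) against 65.2% over all 5. Chrnb1, the beta subunit gene (ENSMUSG00000041189, chromosome 11, 69784036 to 69795943, minus strand), was at 22.5, 25.2, 37.0, 24.1 and 20.7 FPKM. It was the most abundant of the 10 genes in every library, and library 3 was 1.47-fold over library 2 (interval 1.35 to 1.60).

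The make-up of the receptor transcripts therefore differed in library 3. The 5 subunit genes summed to 85.3 FPKM there, against 38.1 to 45.1 FPKM in the other libraries. Of that sum, gamma made up 12.0% in library 3 and 0.0749% to 0.310% elsewhere, and delta 14.7% against 3.62% to 6.49%. The alpha gene took 17.6% against 11.1% to 14.4%. The beta gene took 43.4% in library 3 and 54.2% to 59.6% elsewhere, although its level was highest there, and epsilon took 12.4% against 25.4% to 29.2%. In a bulk sample, more cells or nuclei that make a transcript and more transcript per nucleus cannot be told apart.

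**Figure D2:**
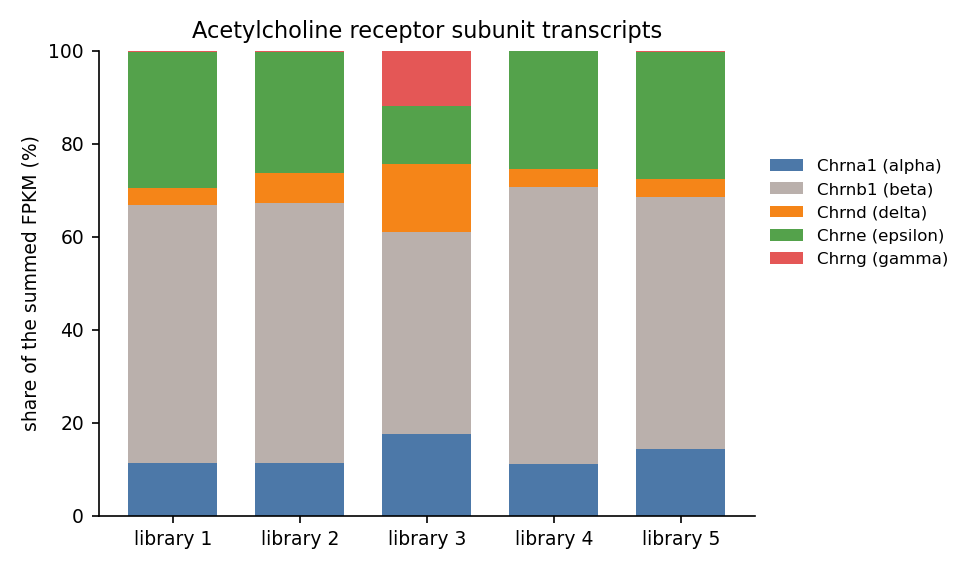
Share of each subunit gene in the summed FPKM of the 5 acetylcholine receptor subunit genes, in percent, with 1 stacked bar per library. Gamma is visible only in library 3, at 12.0%, where epsilon takes 12.4% against 25.4% to 29.2% in the other libraries.

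The genes of receptor clustering were closer together. Lrp4, the agrin receptor (ENSMUSG00000027253, chromosome 2, 91457511 to 91513779, plus strand), was at 2.12, 2.64, 2.11, 1.56 and 1.51 FPKM in libraries 1 to 5. It was highest in library 2, at 1.25-fold over library 1, and library 3 lay in the middle. Musk, the kinase (ENSMUSG00000057280, chromosome 4, 58285960 to 58374303, plus strand), was at 1.66, 1.15, 1.84, 1.15 and 1.41 FPKM. Library 3 was highest, but its fold of 1.11 over library 1 had a counting interval of 0.850 to 1.45, so these 2 could not be told apart at 105 and 130 reads.

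Dok7, the adaptor and activator of Musk (ENSMUSG00000044716, chromosome 5, 35056766 to 35087839, plus strand), was at 7.86, 7.18, 9.54, 6.96 and 6.22 FPKM. Library 3 was highest by 1.21-fold (interval 1.06 to 1.38). Rapsn, which encodes rapsyn (ENSMUSG00000002104, chromosome 2, 91035620 to 91045729, plus strand), was at 17.2, 16.8, 18.3, 23.2 and 15.3 FPKM. It was highest in library 4, at 1.27-fold over library 3 (interval 1.14 to 1.42). A noncoding gene on the opposite strand, Gm13778, overlaps its end at 1.17 FPKM on average.

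Colq, the collagen tail that fastens acetylcholinesterase in the synaptic cleft (ENSMUSG00000057606, chromosome 14, 31523082 to 31591343, minus strand), was at 2.97, 2.60, 8.85, 3.43 and 2.95 FPKM. Library 3 was 2.58-fold over library 4 (interval 2.20 to 3.04), and the other 4 libraries had a coefficient of variation of 11.4%. The genes Gm49387, which is protein-coding, and Gm24057 overlap Colq on the same strand and are not analysed here, so any reads they share with it cannot be told apart. Ache, the enzyme it anchors, was at 10.8, 11.4, 19.8, 8.72 and 9.92 FPKM, with library 3 at 1.73-fold over library 2 (interval 1.58 to 1.90). Both were highest in the same library. Colq lay below Ache in 5 of 5 libraries, by a mean log2 ratio of -1.62 ± 0.38 (SD, n = 5, on the log2(FPKM + 0.1) scale).

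Set against all genes, the counts of members read as follows. Reads differed between libraries beyond counting error for 9 of the 10 members (chi-square test of recovered reads, Benjamini-Hochberg adjusted p under 0.05), and for 87.9% of all 10710 genes tested, so the members' share is near that of the whole table. Of the 10 members, 7 were highest in library 3, against 37.4% of all genes. Chrne was highest in library 1, Lrp4 in library 2 and Rapsn in library 4, where 21.2%, 23.2% and 10.5% of all genes were highest, and no member was highest in library 5, against 7.68%. The 4 members Chrng, Chrnd, Chrna1 and Colq were at least 1.5-fold over the next library, all in library 3, and 8.99% of all genes were in any library. By library this share was 0.308%, 1.12%, 7.25%, 0.14% and 0.168% of all genes in libraries 1 to 5. The median fold of the highest over the next library was 1.37 for the members and 1.10 for all genes tested.

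Without library 3 only Chrnd was at 1.5-fold or more, being higher in library 2, against 3.95% of all genes. The median coefficient of variation between libraries was 24.2% for the members and 16.3% for all genes, and without library 3 it was 14.7% and 14.2%. With limma, the residual variance of a gene was also set against that of genes of like level. No gene passed an adjusted p of 0.05 (0% of 10710), and 616 (5.75%) were under an unadjusted p of 0.05. The trend and the F distribution were fitted to these same variances, so a share near the threshold is largely built in. With 4 and 3.93 degrees of freedom, even a very large variance ratio gives only a moderate p. Sln ranked 2 by this ratio, at 103, and in limma its p was 0.00031 unadjusted and 0.640 adjusted. The 0% therefore does not show that no gene varied more than genes of like level. Among the 616 in limma were Chrng, which passed the filter only through library 3, Chrnd, Chrna1 and Colq. Their adjusted p in limma were 0.640, 0.640, 0.732 and 0.793. Chrne lay at the other end, and 9.11% of genes had a smaller ratio.

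**Figure D3:**
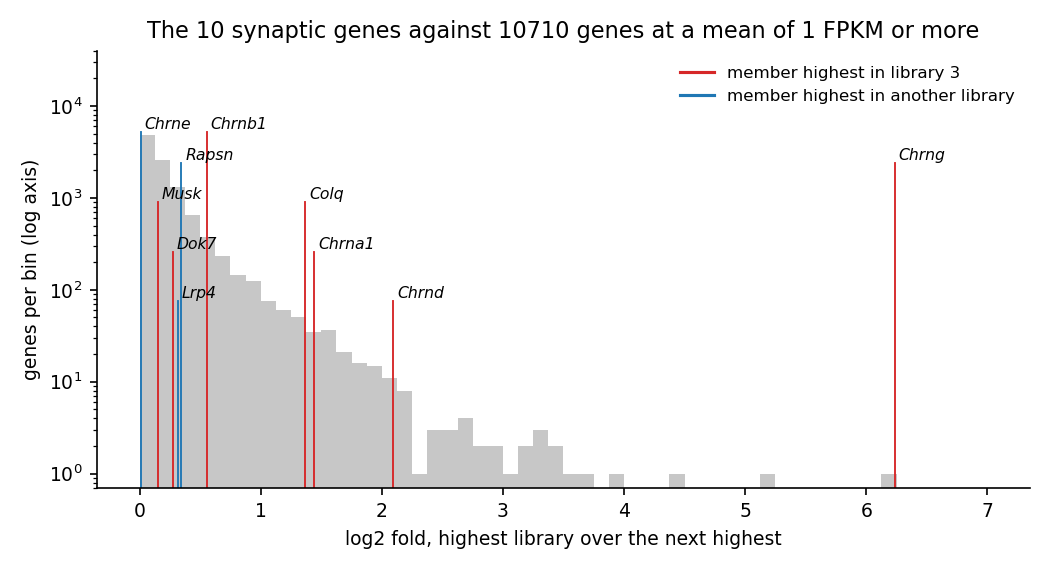
Grey bars count genes (log axis) by the log2 fold of their highest library over the next highest, and vertical lines mark the 10 synaptic genes, in red where library 3 was highest. Chrng lies alone at the far right, at 75.3-fold, and Chrne at the left edge, at 1.01-fold.

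Within a library, the levels of the 10 genes kept much of their order. By mean FPKM (n = 5) it ran from Chrnb1 at 25.9 ± 6.45 and Rapsn at 18.2 ± 3.01, over Chrne at 11.0 ± 0.744, Dok7 at 7.55 ± 1.26, Chrna1 at 6.94 ± 4.52, Colq at 4.16 ± 2.64, Chrnd at 3.97 ± 4.81, Chrng at 2.13 ± 4.53 and Lrp4 at 1.99 ± 0.466, to Musk at 1.44 ± 0.306 (SD). Chrnb1 and Rapsn were the highest and the next in all 5 libraries. The place of Chrng in the order of means was that of no library. It ranked 10 of the 10 genes in libraries 1, 2, 4 and 5 and 6 in library 3. Chrnd was below Lrp4 in libraries 1, 4 and 5, although its mean was higher. Among neighbours, Dok7 and Chrna1 differed by less than their spread, at a log2 ratio of 0.28 ± 0.56, with Dok7 higher in 4 of 5 libraries. Colq and Chrnd did so too, at 0.49 ± 0.76 with Colq higher in 3 of 5. For Chrng over Lrp4 the log2 ratio was -2.24 ± 2.51, with Chrng lower in 4 of 5 libraries and higher in library 3.

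Of the 45 pairs of members, 33 had the same order in all 5 libraries, and 8 of the remaining 12 kept 1 order in libraries 1, 2, 4 and 5. For each of the 33 the exact two-sided sign-flip permutation test gave p = 0.0625, the smallest that 5 samples allow, and 0.0852 after Benjamini-Hochberg adjustment over the 45 pairs, so no pair could pass 0.05. Chrne over Chrng had a log2 ratio of 4.67 ± 2.60 over 5 libraries and 5.83 ± 0.32 without library 3. In library 3 that ratio was 0.05, against 5.63 to 6.31 elsewhere.

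Members were also set beside 5 partner genes in 7 pairs, and in each pair the order was the same in 5 of 5 libraries (exact sign-flip permutation test, p = 0.0625, adjusted over the 7 pairs 0.0625). Agrin, encoded by Agrn, was at 3.74, 3.67, 2.81, 2.40 and 2.90 FPKM, and both Lrp4 and Musk lay below it, by -0.63 ± 0.21 and -1.06 ± 0.36 on the log2 scale (SD, n = 5). In muscle extract Agrn reflects the transcripts of fibres and other cells of the tissue and not those of the motor neuron cell body. Rapsn exceeded Utrn, the synaptic relative of dystrophin, by 3.09 ± 0.54. Myog, which encodes myogenin, was at 6.45, 9.96, 30.1, 11.4 and 7.90 FPKM, highest in library 3 like Chrna1 and Chrnd, and both subunit genes lay below it, by -0.85 ± 0.36 and -2.05 ± 0.60. Chrng lay below Myh3, the embryonic myosin, by -2.97 ± 1.43, and Myh3 was at 1.43, 4.47, 16.3, 2.05 and 1.71 FPKM.

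For the 4 members that varied at least 2-fold between libraries, the genes with the most similar profile were sought among the 10710 genes, by the root mean square difference of the centred log2(FPKM + 1) values over the 5 libraries. Nearest to Chrng were the tubulin gene Tubb6 (0.104), at 146 FPKM in library 3 and 12.0 to 16.2 elsewhere, the macrophage gene Mpeg1 (0.178) and the embryonic myosin light chain Myl4 (0.222). Their folds of library 3 over the next library were 9.03, 14.7 and 10.7, against 75.3 for Chrng. Adding 1 FPKM shrinks the fold of a gene at low levels, so these matches depend on the pseudocount. Nearest to Chrnd were Serpina3n (0.0967), the developmental troponin Tnnt2 (0.125) and the macrophage lysozyme Lyz2 (0.125). Nearest to Chrna1 were Slc25a5 (0.0655), Il13ra1 (0.0657) and Gatm (0.0738), and nearest to Colq were Fads3 (0.0622), Nnmt (0.0709) and Isg15 (0.0792). Among the members themselves, the closest pairs by this measure were Musk with Dok7 (0.130) and Chrne with Lrp4 (0.143), and the farthest was Chrne with Chrng (1.36). This ranking depends on the pseudocount. On the log2(FPKM + 0.1) scale the within-library ratio of Chrnb1 over Dok7 varied least, with an SD of 0.160. That SD was 0.204 for Dok7 over Musk and 0.250 for Chrne over Lrp4. It was largest for Rapsn over Chrng (2.61), followed by Chrne over Chrng (2.60).

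**Figure D4:**
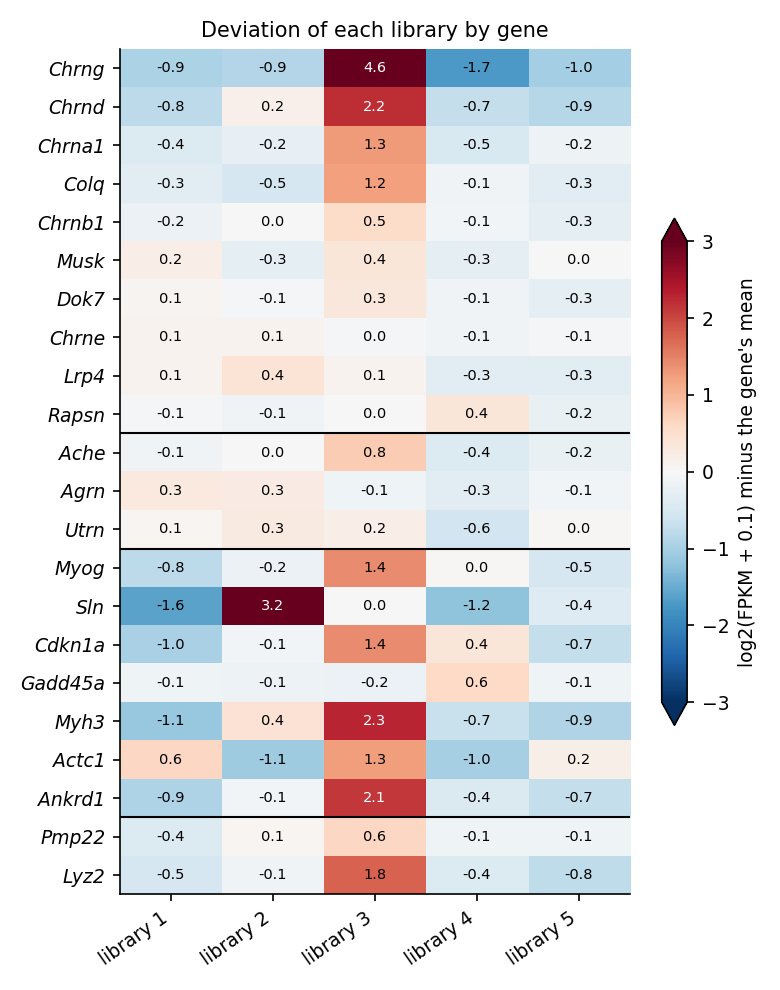
Deviation of each library from the gene's mean on the log2(FPKM + 0.1) scale, for the 10 members (top block), 3 synaptic partners, 7 genes of denervated or regenerating muscle and, at the bottom, the Schwann cell gene Pmp22 and the macrophage gene Lyz2. Chrng deviates by 4.58 in library 3, and Chrne by no more than 0.11 in any library.

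Other genes of the synapse were counted in the same way, beside 37.4% of all genes highest in library 3 and 7.25% at 1.5-fold or more there. Of 19 genes for synaptic signals and their regulators, 16 were at 1 FPKM or more, 9 of these were highest in library 3 and 1, Ache, by 1.5-fold or more. The most abundant were Prkar1a, a regulatory subunit of protein kinase A, at 62.9 ± 14.0 FPKM, the co-chaperone gene Dnaja3 at 47.2 ± 4.05 and the adaptor Crk at 15.7 ± 2.18 (SD, n = 5). Of 19 scaffold and matrix genes, 14 were at 1 FPKM or more, 8 were highest in library 3 and 0 by 1.5-fold. The muscle sodium channel Scn4a was at 67.3 ± 7.80 FPKM and the synaptic laminin Lamb2 at 63.1 ± 8.15. Reads of all 30 genes differed between libraries beyond counting error, as 87.9% of all genes did.

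Acetylcholine receptor subunits known from neurons and sensory cells were scarce. Of 11 such genes, only Chrna10 reached 1 FPKM, at 2.76, 2.83, 2.12, 5.18 and 3.05 FPKM. Chrna9, which pairs with Chrna10 in hair cells of the ear, was at 0.189, 0.0878, 0.423, 2.57 and 0.342 FPKM on 8, 3, 13, 113 and 16 reads, 6.08-fold over the next library in library 4 (interval 3.42 to 11.8). These 2 were both highest in library 4, where none of the 5 muscle subunits was. Chrna2, at 0.157 ± 0.106 FPKM, was highest in library 4 as well, at 0.333 FPKM on 28 reads against 0.0510 to 0.156 FPKM elsewhere. Library 4 was 2.13-fold over library 5 for Chrna2 (interval 1.09 to 4.38). The 8 others averaged 0.128 FPKM or less.

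Genes known to respond to loss of the nerve were mixed. Of 13, 10 were at 1 FPKM or more, Mymk only through library 3, and 6 of these were highest in library 3, 3 in library 2 and 1 in library 4. Sln, the calcium pump inhibitor sarcolipin, was at 225 FPKM in library 2 and 7.88 to 24.2 elsewhere. The cell cycle inhibitor Cdkn1a was at 76.7 FPKM in library 3 and 14.5 to 36.6 elsewhere, and Gadd45a was at 24.6 FPKM in library 4 and 14.3 to 14.8 elsewhere. Among genes of regenerating fibres, Actc1 was at 116 FPKM in library 3 and 23.3 to 75.6 elsewhere, and Ankrd1 at 30.2 against 3.56 to 6.42. Cdh15, a cadherin of satellite cells and fibres, was closer together, at 12.5 ± 2.41 FPKM.

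Markers of other cells at the synapse and in the tissue moved with library 3 to different extents. Of 9 Schwann cell markers at 1 FPKM or more, 6 were highest in library 3, and the 10 markers summed to 200 FPKM there against 93.4 to 136. Pmp22, a myelin protein of peripheral nerve, stood at 56.7 FPKM there against 27.7 to 38.2, and Mbp at 19.5 against 9.55 to 14.5, while the precursor marker Cdh19 was at 0.0766 to 0.221 FPKM in all libraries. The 8 satellite cell markers summed to 124 FPKM in library 3 against 61.3 to 82.5, most of it from Itga7, also a fibre gene, at 83.0 against 30.2 to 48.3. Sdc4 was at 18.4 against 9.87 to 15.5, and Chodl was lowest in library 3, at 2.93 against 3.26 to 5.73. Of this list, Cdh15, Myf5 and Pax7 are also among the regenerating fibre genes, and the defining marker Pax7 was at 0.481 FPKM there, within the 0.356 to 1.07 of the others. The 8 endothelial markers summed to 89.4 FPKM in library 3 against 92.4 to 114, with Cdh5 at 22.8 against 24.4 to 31.2, Pecam1 at 25.1 against 21.3 to 29.4 and Cldn5 at 12.0 against 9.69 to 18.7. The 8 tendon markers summed to 587 FPKM against 349 to 705, with Fmod at 215 against 170.2 to 354, Thbs4 at 267 against 96.1 to 188 and Comp at 38.9 against 24.8 to 66.0. The 8 fast fibre genes summed to 84235 FPKM in library 3 against 75446 to 106994, with Tnnt3 at 13262 against 12575 to 20133 and Mylpf at 11417 against 8969 to 12456. The 8 slow fibre genes summed to 1303 FPKM against 1422 to 4365, and all 8 were highest in library 2, where Tnnt1 was at 975, Myl3 at 697 and Tnnc1 at 661 FPKM. No marker of these lists was at 0 in every library. The part of any of these cells in the levels of the 10 synaptic genes was not tested.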

How the data were processed

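Poly-A selected RNA of gastrocnemius from 5 samples of 1 group was sequenced. The authors deposited FPKM per gene and library. The build mm10 was listed together with HTSeq 0.6.1, STAR 2.5, TopHat, edgeR and DESeq2, per the submitters' processing notes, which give no roles. No annotation or strand setting was given in the sources used here.

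Members and lists were chosen with earlier results of these data known. Symbols, coordinates and exon lengths came from GENCODE M21 (GRCm38, the assembly mm10 names), which held 34490 of the 35275 gene identifiers. In each library an FPKM value is a whole number of reads times a constant of the gene. Library totals and a length per gene were found that made all values whole within 0.001 reads, for 20840 of 20840 genes above 0, with 4544 at the annotated exon length. Recovered reads made up 99.4% to 99.5% of the totals. Where several lengths did so, the shortest was taken for genes above 0 in at least 4 libraries and otherwise the longest not above the annotated one, so reads of sparse genes are uncertain. Intervals (95%) and the floor of 3 reads cover counting error only.

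Tests ran on the 10710 genes averaging at least 1 FPKM, with a chi-square test of recovered reads against the library totals, and with limma 3.58.1 in R 4.3.3 (intercept only, log2(FPKM + 1), residual variance over its abundance trend, one-sided F test on 4 and 3.93 degrees of freedom), both with Benjamini-Hochberg adjustment at 0.05. Both were tested on simulated data. Within-library ratios used log2(FPKM + 0.1) and an exact two-sided sign-flip test over 32 patterns. With 1 group there was no contrast for a count test. Named genes were all 10 members, the 3 genes with the highest mean of each other list, the partner genes and the 3 nearest profiles of each member that varied 2-fold or more. Of the genes this rule names, 2 are not reported here. Pax7, Cdh19, Chodl, Myf5 and Mymk were added after their values were seen. Alternatives covered scaling, filter, pseudocount and leaving out each library. Other software was matplotlib 3.10.9, pandas 2.3.3, scipy 1.17.1 and numpy 2.4.6 under Python 3.11.15.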

Additional observations from a re-analysis of the deposited data

Results flagged for a closer look

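Of 30 results examined for a sample far from the others (the 10 levels, the gamma share, the subunit sum and the log2 ratios of neighbours and partners), 11 had their highest or lowest library separated from the rest by more than the critical share of the range, where chance sets apart about 1 in 20. By the same measure of FPKM, 9.79% of the 10710 genes had a library set apart, and 6.23% had library 3 set apart as the highest, against 5 of the 10 members. In 10 of them it was library 3. It was highest for Chrna1 (15.0 FPKM), Chrnb1 (37.0 FPKM), Chrnd (12.5 FPKM), Chrng (10.2 FPKM) and Colq (8.85 FPKM). It was also highest for the share of gamma in gamma plus epsilon (49.2%), the subunit sum (85.3 FPKM) and the log2 ratio of Chrng over Lrp4 (2.22). Its log2 ratios of Chrnd over Chrng (0.288) and of Chrne over Chrng (0.0483) were the lowest. Library 4 was set apart for Rapsn over Utrn, with the highest log2 ratio (4.04). These results share genes and are not independent of each other.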

How the results depend on the processing

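The 10 mean levels, the gamma share, the signs of the neighbour and partner ratios and the counts beyond counting error were recomputed with each library left out. The member counts in library 3 were recomputed with each of the others left out. Scaling was changed for the mean levels and both kinds of counts, the filter for the counts beyond counting error, and the pseudocount for the ratios. No direction of these turned. Among pairs that are not neighbours, the log2 ratio of Chrnd over Lrp4 was 0.41, and -0.12 without library 3. Members at 1.5-fold or more over the next library numbered 4, and 1 to 5 with 1 library left out, the 1 being without library 3. The percent of all genes at 1.5-fold was 8.99, and 16.3 with a filter at 0.1 FPKM, 3.95 without library 3 and at most 12.2 without another. No gene passed the limma threshold, and 0 to 4 did with 1 library left out, the 4 being without library 3 and none of them a member. Chrng ranked 21 by its limma variance ratio, and 272 with a pseudocount of 0.1. Without library 3 the means of Chrna1, Chrnd, Chrng and Colq were 4.92, 1.84, 0.101 and 2.99 FPKM, the mean gamma share was 0.891%, and 7 members differed beyond counting error, since Colq no longer did and Chrng fell below the filter. Under median-of-ratios scaling 29.5% of all genes, and again 7 members, were highest in library 3, and the fold of Chrnb1 was 1.35. With a pseudocount of 1 the log2 ratio of Chrne over Chrng was 2.77 and with 0.01 it was 5.44, against 4.67. With a pseudocount of 1, Chrng over Lrp4 was -0.76, Chrng over Myh3 -1.37 and Chrnd over Chrng 1.12, against -2.24, -2.97 and 2.65. Depth limits Chrng in libraries 1, 2, 4 and 5, at 2 to 8 reads. No paired analysis was possible because there is 1 group.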
